A study of Homo sapiens with 6 samples.

Results

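The genes described here are 9 of the 23062 identifiers in each deposited table. They are 7 ligands of the EGF family, TGFA, AREG, EREG, HBEGF, BTC, EPGN and NRG1, and the metalloproteases ADAM10 and ADAM17, which cut such ligands from the cell surface. They were chosen by gene symbol, and all 9 symbols were found. The cells were DU145, a prostate cancer cell line from a brain metastasis, labelled wild type and grown in MEM medium with serum. RNA was sequenced in 3 control libraries of cells kept in medium and in 3 libraries of cells treated with taraxasterol (TAX), a pentacyclic triterpene of dandelion, at its IC50 for these cells. Both groups were harvested after 48 h. TAX was dissolved in DMSO, and whether the control cells received DMSO is not stated, so solvent and TAX cannot be told apart. The labels number the libraries of each group 1 to 3 but do not say that they came from separate cultures on separate days, so the p-values measure the spread between these libraries, which may be technical.

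Ligands of the EGF family are made as membrane-anchored precursors. A protease releases the extracellular part, a step called shedding, and the free ligand binds a receptor of the ERBB family on the same or a neighbouring cell. EGFR is bound by TGFA, AREG, EREG, HBEGF, BTC and EPGN, while NRG1 binds ERBB3 and ERBB4. ADAM17 is the main sheddase of TGFA, AREG, EREG and HBEGF, and ADAM10 is that of BTC. The receptors signal through RAS and ERK and through PI3K and AKT. DU145 cells are known to make their own EGFR ligands. Only RNA was measured here, so shedding, receptor binding and phosphorylation are not described.

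Values are FPKM, in which the fragments of a gene are scaled for transcript length and for sequencing depth, so levels of genes of unequal length can be compared. Read numbers were not given, so depth is unknown and no counting interval can be set. The values of a library summed to between 322483 and 363724. Control replicate 3 stood apart, with the lowest sum and a median log2(FPKM + 1) of 3.28, against 3.44 to 3.46 in the other 5 libraries. It also held the lowest value of 5 of the 9 members, and of 3 after each library was rescaled to a common sum (TPM). All 5 epithelial markers were present in every library. KRT8 was at 126 to 170 FPKM in control and 151 to 173 FPKM in TAX libraries, and CDH1 at 40.7 to 66.8 and 42.8 to 50.8 FPKM, both with overlap. KRT18 (108 to 137 and 147 to 172 FPKM), KRT19 (98.6 to 126 and 138 to 151 FPKM) and EPCAM (55.0 to 63.0 and 63.5 to 66.2 FPKM) lay above the control libraries in all TAX libraries, as did 14.6% of all genes tested, and 0 of the 5 passed an adjusted p under 0.05 (limma). Of the 6 leukocyte markers, CD68 was at 20.01 to 26.7 FPKM in control and 32.5 to 33.4 FPKM in TAX libraries, and the other 5, PTPRC among them, stayed at or under 0.419 FPKM in every library. Of 6 fibroblast markers, COL1A1 was at 1.89 to 2.08 FPKM in control and 1.42 to 1.48 FPKM in TAX libraries, COL3A1 and PDGFRB were at or under 0.0755 FPKM in every library, with means of 0.0406 and 0.0134 in control and 0.0656 and 0.0256 in TAX libraries, and DCN, LUM and COL1A2 were listed at 0. Whether these markers have a part in the values of the members was not tested.

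AREG, amphiregulin, was the most abundant of the 9 members in every library. In the order of replicates 1, 2 and 3, AREG had 152, 173 and 146 FPKM without TAX and 173, 157 and 161 FPKM with it, and all values by library are given in this order. The groups overlapped. Over the 6 libraries its mean of 160 FPKM lay above 98.0% of the genes tested. EREG, epiregulin, was next, with 53.1, 59.5 and 38.8 FPKM without TAX and 60.6, 50.4 and 59.4 FPKM with TAX. Control replicate 3 was the lowest for EREG, and the other 5 values spanned 50.4 to 60.6 FPKM. The level of AREG was 2.72 to 3.77 times that of EREG in the same library.

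The sheddases came next in the order of levels. ADAM17 had 41.3, 41.8 and 34.0 FPKM without TAX and 41.3, 33.1 and 37.5 FPKM with TAX, and ADAM10 had 28.7, 29.6 and 26.2 FPKM without TAX and 26.8, 25.9 and 26.8 FPKM with TAX. For both genes the groups overlapped. ADAM17 exceeded ADAM10 in all 6 libraries, by 1.28 to 1.54 times. TGFA, transforming growth factor alpha, had 20.6, 19.6 and 16.98 FPKM without TAX and 21.6, 23.2 and 23.3 FPKM with TAX. All 3 TAX libraries lay above all 3 control libraries for TGFA. HBEGF, the heparin-binding ligand, had 9.80, 11.9 and 8.88 FPKM without TAX and 10.5, 11.6 and 10.9 FPKM after TAX treatment, with overlap. BTC, betacellulin, had 3.20, 3.35 and 2.75 FPKM without TAX and 3.20, 3.24 and 3.53 FPKM after TAX treatment, again with overlap.

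NRG1, neuregulin 1, and EPGN, epigen, were the lowest members. NRG1 had 1.03, 0.618 and 0.480 FPKM without TAX and 0.541, 0.651 and 0.411 FPKM with TAX, and control replicate 1 alone reached 1 FPKM. EPGN had 0.226, 0.123 and 0.142 FPKM without TAX and 0.0848, 0.101 and 0.271 FPKM with TAX. Its highest and its lowest value were both in the TAX group. The order of the 9 mean levels was AREG, EREG, ADAM17, ADAM10, TGFA, HBEGF, BTC, NRG1 and EPGN. Each gene exceeded the next in that order in 6 of 6 libraries. EREG and ADAM17 were the only neighbours in it whose ranges over the libraries overlapped.

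**Figure D1:**
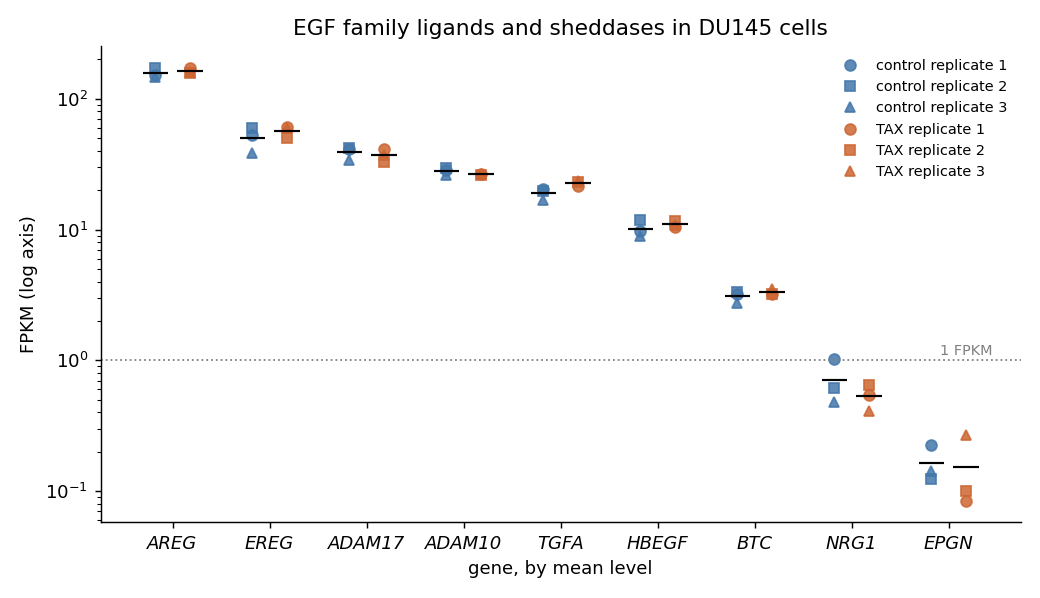
FPKM on a log axis of the 9 genes, ordered by mean level, with 1 symbol per library, control in blue, TAX in orange and a black line at each group mean. AREG is near 160 FPKM and EPGN near 0.158 FPKM, and only for TGFA do the 3 TAX libraries lie above the 3 control libraries.

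The genes of 4 members lie in the same part of chromosome 4, in GENCODE 29 (GRCh38) between 74308473 and 74794686, a span of 486214 bases. EPGN (74308473 to 74315307), EREG (74365143 to 74388751) and AREG (74445134 to 74455009) follow each other on the plus strand, 49835 and 56382 bases apart. BTC (74744759 to 74794686) lies 289749 bases further on the minus strand. No other protein-coding gene is annotated between them. Neighbours in this cluster differed widely in level, the mean of EREG being 339 times and that of AREG 1015 times that of EPGN, and that of AREG 49.9 times that of BTC. The genes that flank the cluster, MTHFD2L and PARM1, had means of 3.23 and 4.11 FPKM, and CXCL2, a chemokine gene before MTHFD2L, had 52.5 FPKM.

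The sequences upstream of EPGN, EREG and AREG are shown because these 3 genes are adjacent, on the same strand, and yet span the lowest and the highest levels among the members. They were taken from RefSeq promoter windows (GRCh38.p14, plus strand) that run from 250 bases before to 50 bases after the annotated start, and the first 240 bases of each are printed. Capitals mark matches to the motifs searched. The positions are chr4:74308220-74308459 for EPGN, chr4:74364895-74365134 for EREG and chr4:74444886-74445125 for AREG.
EPGN: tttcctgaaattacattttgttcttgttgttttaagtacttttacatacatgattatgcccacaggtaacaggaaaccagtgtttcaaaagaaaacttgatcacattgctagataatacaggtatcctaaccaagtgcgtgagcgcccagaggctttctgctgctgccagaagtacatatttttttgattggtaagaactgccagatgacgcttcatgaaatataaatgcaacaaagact
EREG: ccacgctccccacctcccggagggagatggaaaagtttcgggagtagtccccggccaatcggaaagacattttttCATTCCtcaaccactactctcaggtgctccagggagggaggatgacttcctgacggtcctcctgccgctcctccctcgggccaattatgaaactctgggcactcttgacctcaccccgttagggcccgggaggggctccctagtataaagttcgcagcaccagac
AREG: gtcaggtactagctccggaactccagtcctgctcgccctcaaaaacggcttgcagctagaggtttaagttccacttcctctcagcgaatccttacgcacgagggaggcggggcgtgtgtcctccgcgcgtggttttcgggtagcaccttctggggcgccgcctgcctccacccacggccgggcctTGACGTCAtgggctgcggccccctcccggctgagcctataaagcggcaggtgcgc

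The motifs were searched on both strands of the windows of 300 bases, which were found for 8 of the 9 members, with 2 windows for TGFA. The cyclic AMP response element TGACGTCA, which is its own reverse complement, was found once in the AREG window, at bases -65 to -58 relative to the start, and in no window of another member. Of 35116 windows of all genes, 1.85% held it. The TEAD motif GGAATG was found as CATTCC in EREG, at bases -175 to -170, and once in ADAM17, while 14.0% of all windows held it. The ETS motif CCGGAAG was found in ADAM17 only among the members, at 2 places, and in 10.3% of all windows. The AP-1 motif TGANTCA was in none of the members' windows and in 7.71% of all windows. No match overlapped a match of another motif. The EPGN, TGFA, HBEGF, BTC and ADAM10 windows held none of these letters. G and C made up 37.1% of the printed bases of EPGN, 58.3% of those of EREG and 64.6% of those of AREG.

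The other members are TGFA and ADAM17 on chromosome 2 (70447280 to 70554193 and 9488486 to 9556732), HBEGF on chromosome 5 (140332843 to 140346631), NRG1 on chromosome 8 (31639386 to 32767959) and ADAM10 on chromosome 15 (58588807 to 58749978). ADAM17 overlaps IAH1 on the opposite strand, which had a mean of 17.2 FPKM. ADAM17, ADAM10 and NRG1 also overlap annotated non-coding genes or pseudogenes on the opposite strand, for which no value was listed. Whether reads were counted by strand is not given in the sources used here. Reads from the stretch shared by ADAM17 and IAH1, or from those other stretches, could therefore belong to either gene.

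AREG supplied most of the ligand transcripts per length. The FPKM of the 7 ligands and of the remaining EGF family genes EGF, NRG2, NRG3 and NRG4 summed to 246, 274 and 220 in control and to 275, 253 and 265 in TAX-treated cells. AREG made up 60.8% to 66.3% of this sum, EREG 17.6% to 22.4%, TGFA 7.14% to 9.19% and HBEGF 3.82% to 4.57%. The other 7 ligands held what was left, NRG2, NRG4 and BTC with 0.673% to 1.37% each. EGF itself was at 0.391 to 0.681 FPKM, and NRG3 was listed at 0 in all libraries. The sums of the groups overlapped, at 247 ± 27.1 FPKM without TAX and 265 ± 11.2 FPKM with TAX (SD, n = 3 each). AREG over TGFA was 7.38, 8.83 and 8.60 in control and 8.01, 6.76 and 6.91 in TAX-treated cells, with overlap.

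**Figure D2:**
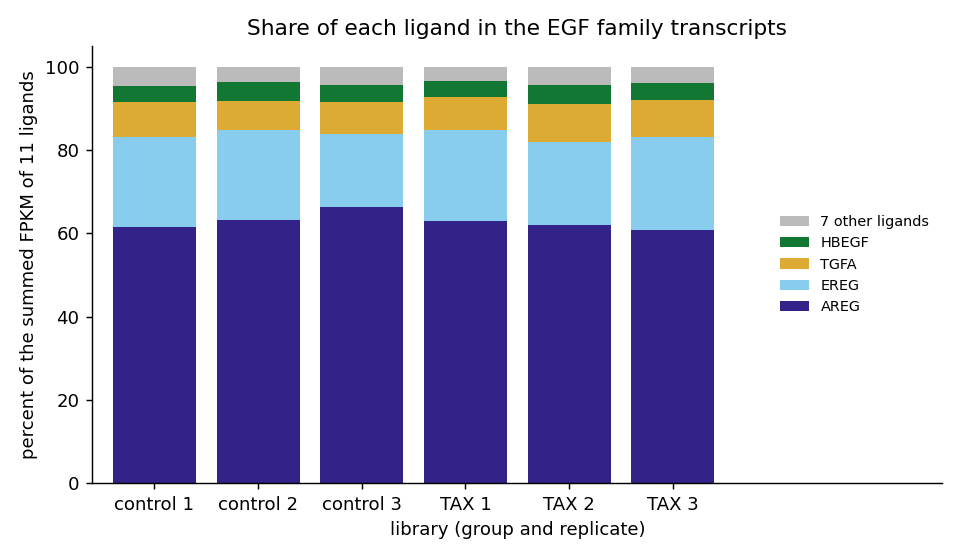
Stacked bars of the percent that each ligand held of the summed FPKM of 11 EGF family ligands, for each of the 6 libraries. AREG holds between 60.8% and 66.3% in every library, and EREG, TGFA and HBEGF follow in this order.

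The comparison of TAX-treated with control cells asked whether the RNA of the ligands or sheddases changed with the treatment. None of the 9 members passed an adjusted p under 0.05 (limma on log2(FPKM + 1), Benjamini-Hochberg over all genes tested), where 59 of 12359 genes, or 0.477%, did. Of the 7 members above the filter of 1 FPKM in at least 3 libraries, 5 were higher and 2 lower, with a median log2 fold change of 0.078, and AREG among the higher was at -0.00089 after quantile normalization. Over all genes tested, 69.1% were higher and the median was 0.054. At an unadjusted p under 0.05, 1 member was higher, TGFA, and 0 were lower, beside 7.73% of all genes that were higher and 2.41% that were lower. TGFA was also the 1 member without overlap between groups, which was the case with TAX higher for 14.6% of all genes and with TAX lower for 3.34%. A count of 1 is near what these shares give for 7 genes and is no result about the members.

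TGFA had 19.1 ± 1.87 FPKM without TAX and 22.7 ± 0.954 FPKM with TAX (SD, n = 3 each). Its log2 fold change was 0.25 with a standard error of 0.089 and a 95% interval from 0.049 to 0.44 (unadjusted p = 0.0191, adjusted p = 0.400, limma), which ranked 588 among the genes tested. Without TAX replicate 2 or TAX replicate 3 the unadjusted p of TGFA was 0.0573 or 0.0691 (limma), and without each other library it stayed under 0.05. The exact two-sided permutation test of TGFA gave p = 0.1, the smallest that 3 against 3 libraries allow. EREG had 50.4 ± 10.6 against 56.8 ± 5.55 FPKM (SD, n = 3 each), and a log2 fold change of 0.19 with a standard error of 0.14 (adjusted p = 0.673, limma). It rested on control replicate 3, without which the log2 fold change of EREG was 0.011. Without control replicate 2 it was 0.31, with an unadjusted p of 0.0456 and an adjusted p of 0.367 (limma). Leaving out control replicate 2 also took HBEGF to 0.21 (adjusted p = 0.360, limma) and left AREG and HBEGF, beside TGFA, without overlap. With that library left out, 1644 of all genes tested passed an unadjusted p under 0.05 (limma), against 1253 with every library. The share of all genes without overlap is not given for that setting, so the lack of overlap there is no result about the members. AREG had 157 ± 14.3 against 164 ± 8.43 FPKM (SD, n = 3 each), with a log2 fold change of 0.064 and a 95% interval from -0.14 to 0.27. HBEGF and BTC had log2 fold changes of 0.11 and 0.078, with standard errors of 0.10 and 0.086 (adjusted p = 0.736 and 0.776, limma). Without control replicate 3 the log2 fold changes of AREG, HBEGF and BTC were 0.014, 0.022 and 0.015. Those of AREG and BTC were 0.14 and 0.12 without control replicate 2.

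The sheddases had negative log2 fold changes. ADAM10 had 28.2 ± 1.77 FPKM without TAX and 26.5 ± 0.508 FPKM with TAX (SD, n = 3 each), a log2 fold change of -0.084 with a standard error of 0.079 (adjusted p = 0.728, limma). The groups of ADAM10 overlapped by the value of control replicate 3, and the overlap ended with that library left out, and also with every library rescaled. With each library rescaled to a common sum (TPM), ADAM10 had 79.0, 84.8 and 81.3 in control and 76.2, 72.4 and 77.7 in TAX-treated cells, a log2 fold change of -0.11 (adjusted p = 0.473, limma). After quantile normalization the log2 fold change of ADAM10 was -0.15 (unadjusted p = 0.0190, adjusted p = 0.306, limma), and after centring on medians it was -0.14 (unadjusted p = 0.0217, adjusted p = 0.315, limma). Without control replicate 3 the log2 fold change of ADAM10 was -0.13 (unadjusted p = 0.0465, adjusted p = 0.434, limma). It was smaller, -0.049, without control replicate 2 (unadjusted p = 0.595, adjusted p = 0.820, limma). ADAM17 had 39.0 ± 4.38 against 37.3 ± 4.10 FPKM (SD, n = 3 each), with a log2 fold change of -0.064 and a standard error of 0.11 (adjusted p = 0.851, limma). The log2 fold change of ADAM17 was 0.017 without TAX replicate 2 and -0.16 without control replicate 3. NRG1 and EPGN lay under the filter and entered a separate fit in which every member was kept. Their log2 fold changes were -0.15 and -0.017 with standard errors of 0.12 and 0.092 (adjusted p = 0.692 and 0.961, limma), on a scale that understates changes of low genes. With a pseudocount of 0.1 in place of 1 they were -0.31 and -0.12. The value of NRG1 rested on control replicate 1, without which it was -0.015, and EPGN was then at 0.021.

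The absence of a call does not show that a gene stayed the same. On the scale of log2(FPKM + 1), the 95% interval of AREG in the fit as reported ran from 0.906-fold to 1.21-fold. That of EREG ran from 0.913-fold to 1.42-fold, of HBEGF from 0.920-fold to 1.26-fold and of BTC from 0.924-fold to 1.21-fold. For ADAM10 it ran from 0.836-fold to 1.06-fold and for ADAM17 from 0.81-fold to 1.13-fold. These intervals measure the spread between these libraries, which may be technical, so larger changes are not excluded. Fold changes moved with a library left out, and intervals for those fits are not given. In bulk RNA, fewer cells that make a transcript and less of it per cell cannot be told apart. The genes whose values over the 6 libraries were most like those of TGFA, among 11632 named genes tested, were SFXN3, PRR7 and SH2D3A. Their centred log2(FPKM + 1) differed from that of TGFA by a root mean square of 0.016 to 0.017, where TGFA itself spread by 0.15. Those most like EREG were LONP1, BCL10 and PDP1, with differences of 0.035 to 0.044 against a spread of 0.22.

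**Figure D3:**
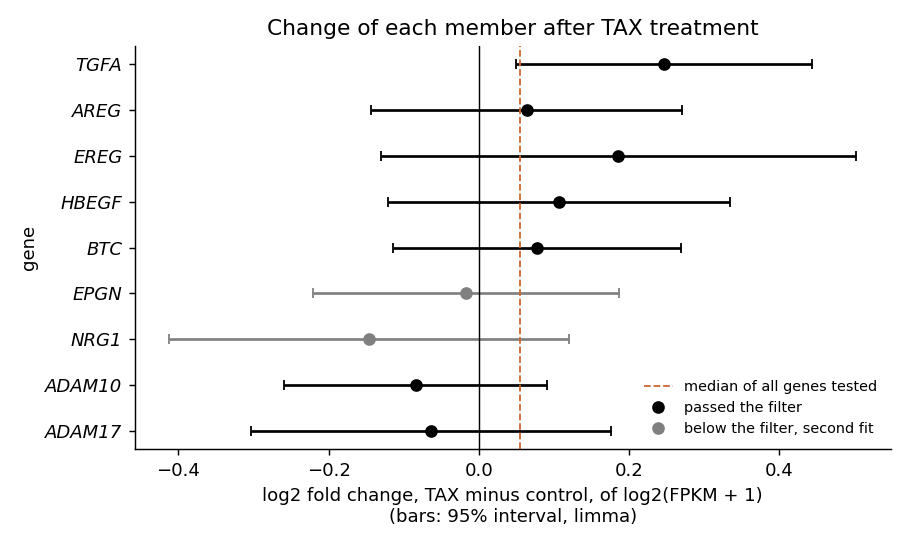
Log2 fold change of log2(FPKM + 1), TAX minus control, with its 95% interval from limma for each of the 9 genes, grey where the gene lay under the filter. The interval of TGFA, from 0.049 to 0.44, is the only one that does not include 0, and the dashed line marks the median of all genes tested, 0.054.

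**Figure D4:**
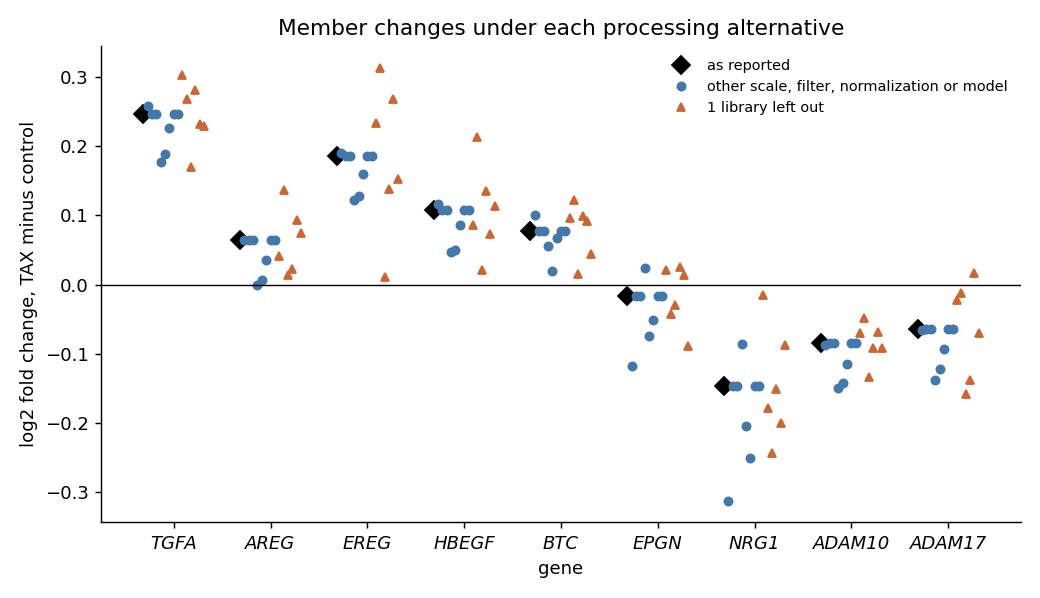
Log2 fold change of each of the 9 genes as reported (black diamonds), under another pseudocount, filter, normalization or model (blue circles) and with 1 library left out (orange triangles). TGFA stays between 0.17 and 0.30 in all of them, while EREG runs from 0.011 to 0.31.

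The receptors of these ligands were compared in the same fit. EGFR, the receptor of most of the ligands, had 38.6, 42.9 and 30.8 FPKM without TAX and 46.5, 39.0 and 46.6 FPKM with TAX, with overlap (log2 fold change 0.24, standard error 0.12, adjusted p = 0.540, limma). Its lowest value was in control replicate 3, on which much of this fold change rests. ERBB2, which has no ligand of its own and pairs with the others, had 14.4 ± 1.79 and 13.4 ± 0.416 FPKM. ERBB3, a receptor of NRG1, had 7.06 ± 0.504 and 6.74 ± 0.344 FPKM (SD, n = 3 each). ERBB4 was at or under 0.0141 FPKM in all libraries. Of the other ligands, NRG2 had 2.70 ± 0.193 against 3.12 ± 0.267 FPKM and NRG4 3.13 ± 0.0999 against 2.53 ± 0.588 FPKM (SD, n = 3 each). NRG2 was higher and NRG4 lower in all TAX libraries than in all control libraries, with adjusted p = 0.558 and 0.516 (limma), beside 14.6% of all genes without overlap and higher and 3.34% without overlap and lower. NRG4 had 1.85, 2.80 and 2.93 FPKM in the TAX libraries, and its log2 fold change of -0.24 was -0.095 without TAX replicate 1. That of NRG2 was 0.16, and 0.10 without TAX replicate 2.

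Genes that act on the sheddases were followed from a list of 16, of which 13 passed the filter, 11 of these with positive and 2 with negative log2 fold changes, and 0 passed an adjusted p under 0.05. Of all genes tested, 69.1% had a positive log2 fold change. The smallest p belonged to TSPAN5, a tetraspanin that carries ADAM10 to the cell surface (14.5 ± 0.907 against 16.9 ± 0.243 FPKM), FRMD8, a partner of the iRhoms (8.87 ± 0.196 against 10.4 ± 0.551 FPKM), and RHBDF2, which encodes iRhom2 and brings ADAM17 to maturity (14.7 ± 2.53 against 17.4 ± 0.119 FPKM; SD, n = 3 each). Their adjusted p were 0.406, 0.414 and 0.495 (limma). RHBDF2 had 17.2, 14.8 and 12.1 FPKM in the control libraries, so much of its difference rests on control replicate 3. TIMP3, an inhibitor of ADAM17, was listed at 0 in all libraries. Of 9 other proteases of ligand release or processing, most of them in the membrane, 8 passed the filter and 0 were called. ADAM8 had the smallest p (15.2 ± 2.22 against 19.3 ± 0.362 FPKM, SD, n = 3 each, adjusted p = 0.315, limma). ADAM9 was the most abundant of these, at 166 to 209 FPKM.

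Downstream of the receptors, 0 of 18 adaptors, RAS, RAF, MEK and ERK genes and other signalling genes passed an adjusted p under 0.05. Of 16 inhibitors of EGFR or genes of receptor sorting and degradation, 0 passed. The medians of these lists were 0.10 and 0.078 on the log2 scale, beside 0.054 over all genes. In the first list HRAS, MAP2K1 and GAB1 had the smallest p, with log2 fold changes of 0.28, 0.29 and -0.24 (adjusted p from 0.247 to 0.445, limma). In the second HGS, which sorts receptors for degradation, PTPRJ, a phosphatase, and CBLC, a ubiquitin ligase, had 0.36, -0.38 and 0.33 (adjusted p from 0.232 to 0.358, limma). Of 16 feedback and target genes of ERK, 2 were called, both higher, beside 0.477% of all genes called in either direction, and the median log2 fold change was 0.32. ETV4, a PEA3 factor, rose by 0.65 and PHLDA1 by 0.57 on the log2 scale (adjusted p = 0.0104 and 0.0275, limma). At an unadjusted p under 0.05, 11 of the 16 were higher and 1 lower, EGR1, an early response gene, with a log2 fold change of -0.87 (adjusted p = 0.0731, limma). CCND1, which encodes cyclin D1, had the same adjusted p in the other direction, with 34.9 ± 0.933 against 45.7 ± 1.24 FPKM (SD, n = 3 each) and a log2 fold change of 0.38 (adjusted p = 0.0731, limma). Of all genes tested, 7.73% were higher and 2.41% lower at an unadjusted p under 0.05. The count of 2 became 0 without a filter on low values, over 20280 genes, 4 without control replicate 2 and 1 with any other library left out. All these lists were chosen with earlier results of these libraries known, so their counts are a description.

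**Figure D5:**
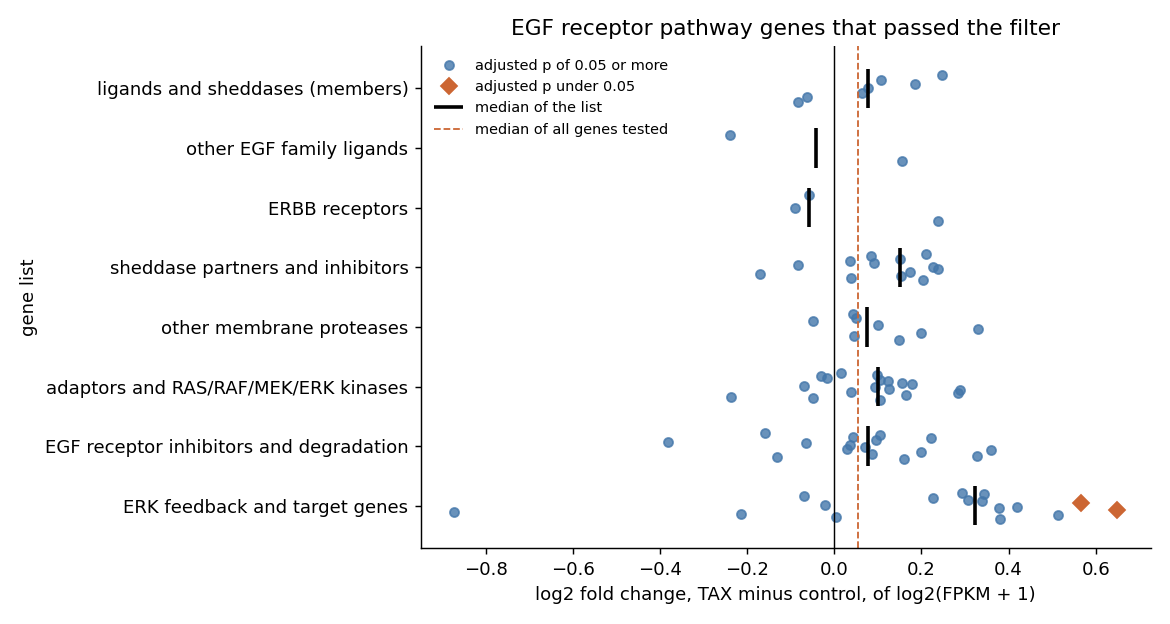
Log2 fold change, TAX minus control, of each gene above the filter in 8 lists of the EGF receptor pathway, with a black bar at the median of each list and a dashed line at the median of all genes tested, 0.054. Orange diamonds, ETV4 and PHLDA1, mark an adjusted p under 0.05, and the 7 ligands and sheddases in the top row lie between -0.084 and 0.25.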

How the data were processed

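RNA sequencing libraries of DU145 cells, 3 control and 3 TAX, were used as deposited, 1 table per library. The authors deposited 1 value per identifier, read here as FPKM because the values are decimals that sum to unequal totals and because 3130 identifiers carry the MSTRG prefix of StringTie. The submitters' processing notes name HISAT2 2.2.0, StringTie 2.1.2 and GRCh38. The annotation, filters and depth are not given in the sources used here.

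The FPKM were analysed as log2(FPKM + 1) in R 4.3.3 by limma 3.58.1, moderated with a mean-variance trend and without covariates, over 12359 genes that reached 1 FPKM in 3 or more libraries, and p-values were adjusted by Benjamini-Hochberg over all of them. The plan named a test for counts should the tables hold counts. A second fit of 12361 genes added the members under the filter. Single genes were also compared by exact permutation over 10 splits. On simulated data with 200 of 12359 genes changed 1.5-fold, 78.5% were recovered with 2 false calls, and with a log2 change of 1, 96.5% with 9 false calls. Each came from a single run, with noise drawn independently for each gene and no shift of a whole library. These shares need not hold for the real libraries.

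The members and gene lists were chosen with earlier results of these data known. Named genes were all members, the ERBB receptors, the other ligands, and of each pathway list the genes with an adjusted p under 0.05 or otherwise at most 3 with the smallest p. For the 2 members with the smallest p, the 3 most similar genes were named. Epithelial, leukocyte and fibroblast markers were named as a check of the cells, not by p. EGR1, CCND1, TIMP3, ADAM9, IAH1 and the genes around the chromosome 4 cluster were named after their values were seen. Protein sequences and a promoter of NRG1 were not used here. A further marker check of the cell line is not reported here. Alternatives were a pseudocount of 0.1, a filter of 0.1 FPKM or none, quantile normalization, centring on medians, rescaling to a common sum (TPM), limma without trend, a replicate block and leaving out each library.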

Additional observations from a re-analysis of the deposited data

How the results depend on the processing

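None of the 9 members passed an adjusted p under 0.05 (limma) in any of the 14 alternatives, the smallest adjusted p being 0.204 for TGFA after rescaling to a common sum (TPM). By an unadjusted p under 0.05, 1 member (TGFA) and 1253 genes passed as reported. ADAM10 passed too, lower, after quantile normalization, after centring and without control replicate 3, 3 members passed without control replicate 2 (TGFA, EREG and HBEGF), and 0 without TAX replicate 2 or TAX replicate 3. Over all genes tested, 1460 passed after quantile normalization, 1497 after centring and 1398 without control replicate 3. The count was 1644 without control replicate 2, 960 without TAX replicate 2 and 779 without TAX replicate 3. The number of members without overlap was 1, or 2 after quantile normalization, centring on medians or rescaling (TGFA and ADAM10), and 1 to 3 with a library left out. The shares of all genes without overlap, 14.6% higher and 3.34% lower, hold for the fit as reported only. For the alternatives such shares are not given, so these counts are no result about the members. TGFA, EREG, HBEGF and BTC stayed higher and NRG1 and ADAM10 lower in all 14. AREG was at -0.00089 and EPGN at 0.023 after quantile normalization. With a library left out, EPGN ran from -0.089 to 0.025 and ADAM17 from -0.16 to 0.017, above 0 only without TAX replicate 2.

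The 59 genes called became 37 with a filter of 0.1 FPKM, 1 without a filter, 95 after quantile normalization, 96 after centring and 75 after rescaling, and 19 (without TAX replicate 2) to 40 (without control replicate 2) with a library left out, where fewer libraries were fitted. The 39 higher and 20 lower calls became 49 and 26 after rescaling, 46 and 50 after centring and 47 and 48 after quantile normalization, where centring and quantile normalization bring the libraries to a common level by construction. They were 13 and 13 with the replicate block, 12 and 15 without control replicate 3, 9 and 10 without TAX replicate 2 and 11 and 12 without TAX replicate 3. Of the ERK feedback and target genes, 2 were called, 0 without a filter, 3 after each of the 3 rescalings and 1 to 4 with a library left out. Same-numbered libraries did not deviate together (r across genes -0.12, -0.33 and -0.17 for numbers 1, 2 and 3). Between differently numbered libraries r ran from -0.17 (control replicate 3 with TAX replicate 1) to 0.29 (control replicate 3 with TAX replicate 2). Deviations were taken from the mean of 3 libraries per group, so these r depend on each other. Whether the numbers pair the libraries by design cannot be decided from them. With the replicate block, 26 genes, 1 of the ERK list and 0 members were called. Without read numbers, small changes in EPGN and NRG1 cannot be judged.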
